A study of Mus musculus with 55 samples.

Results

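The chains of the interferon receptors and the inducible inhibitors that act below them were followed through the blood stem and progenitor cells of mouse bone marrow. The 8 genes were taken by symbol: Ifnar1, Ifnar2, Ifngr1, Ifngr2, Socs1, Socs2, Socs3 and Cish. All 8 were found among the 55421 genes of the first count table and again among the 35976 lines of the second. The first table holds 46 bulk RNA-seq libraries of 6 sorted populations: long-term and short-term hematopoietic stem cells (LT-HSC, ST-HSC), and the progenitors of all myeloid cells (CMP), of granulocytes and macrophages (GMP), of megakaryocytes and red cells (MEP) and of lymphocytes (CLP). WT and Tet2-/- mice are represented by 4 libraries per population, but both WT stem cell populations by 3. In the second table are 9 libraries of LT-HSCs, from WT (3), Sting-/- (3) and Tet2;Sting DKO mice (3). According to the labels, 200 cells were sorted per library and made into full-length cDNA; the study's methods give another cell number.

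The Tet2-/- mice carried Tet2f/f and Mx1-Cre on a C57BL/6 background. Cre was induced with poly(I:C), itself an interferon inducer, at 4 weeks of age, and the cells were collected 16 weeks after induction. Mx1-Cre is also active outside the blood, so deletion was not limited to the sorted cells. Whether the WT mice received poly(I:C) is not given in the sources used here. Sting, listed in the tables as Tmem173, is the adaptor of cytosolic DNA sensing. The Sting-/- mice lacked it, and the DKO mice carried Tet2f/f, Mx1-Cre and Sting-/- together and also received poly(I:C) to induce Cre. No time from induction to collection is stated for the libraries of the second table themselves, but a legend of the study says, beside another panel of the same figure, that all mice were analysed a year after poly(I:C) injection.

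Type I interferons are bound by the Ifnar1 and Ifnar2 chains together, and interferon-gamma by Ifngr1 and Ifngr2. Both receptors hand the signal to JAK kinases and STAT factors, and the STATs then switch on Socs genes and Cish, whose proteins block the receptors and kinases again. In the bone marrow, interferons push resting stem cells into cycle, while Socs2 and Cish are known targets of STAT5 below cytokine receptors such as that for thrombopoietin.

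Libraries of the first table held between 50458473 and 102148079 counts (median 70118186.5) over 13754 to 20964 detected genes, and those of the second between 26776517 and 78682096 (median 40641627) over 9382 to 11528 genes. The summed level of marker genes in CPM (counts scaled to the size of their library) followed the labels of the GMPs (31480 to 44550 for 6 GMP markers) and MEPs (13330 to 19150 for 6 MEP markers). The sum of 8 LT-HSC markers overlapped between LT-HSCs and ST-HSCs of WT mice (415 to 681 against 412 to 448) but not of Tet2-/- mice (582 to 792 against 312 to 560). CLP libraries had 530 to 2327 CPM of 6 CLP markers, but their GMP markers ran from 2.84 to 12320 CPM. The gene-level count of Tet2 was not lower in every Tet2-/- population: its mean was 44.6 CPM against 19.4 in WT CLPs, 23.9 against 13.2 in LT-HSCs and 47.7 against 37.6 in GMPs, and 16.2 against 20.7 in CMPs. In the second table it was 1.29 to 42.6 CPM in DKO libraries and 0 in 2 of 3 WT libraries. Reads over the deleted part of Tet2 were not analysed here, so this count does not check the genotype. Also in the second table, Tmem173 ranged from 0 to 121 CPM in the libraries labelled Sting-/-, from 0 to 26.1 CPM in DKO and from 0 to 46.1 CPM in WT libraries. Of the libraries labelled Sting-/-, 2 of 3 exceeded every WT library, so the gene-level count does not follow these labels, which are used as given. There, the Y-linked gene Eif2s3y was at most 0.237 CPM in WT, 154 to 213 CPM in Sting-/- and 283 to 323 CPM in DKO libraries, so sex and genotype cannot be told apart in that table's comparisons with WT.

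Ifnar2, Ifnar1 and Ifngr2 lie in a row on the plus strand of chromosome 16 (mm10), at chr16:91372783-91405589, chr16:91485238-91507441 and chr16:91547072-91565623. The span of 192.8 kb holds 5 protein-coding genes, the others being Il10rb and Gm21970, and Gm21970 overlaps Ifnar2 on the same strand, so their reads may be shared. Ifngr1 stands alone at chr10:19591949-19610229 on the plus strand. The 250 bases before each receptor gene's start are printed here (RefSeq, GRCm38.p6, plus strand) because Ifnar2 and Ifngr2 of this cluster were both called lower in Tet2-/- CMPs and MEPs. RefSeq starts differ from the GENCODE starts given above for Ifnar1 and Ifngr2. Capitals mark a STAT-type motif, TTCNNNGAA or TTCNNNNGAA, which reads the same way on both strands.
Ifnar2, chr16:91372533-91372782: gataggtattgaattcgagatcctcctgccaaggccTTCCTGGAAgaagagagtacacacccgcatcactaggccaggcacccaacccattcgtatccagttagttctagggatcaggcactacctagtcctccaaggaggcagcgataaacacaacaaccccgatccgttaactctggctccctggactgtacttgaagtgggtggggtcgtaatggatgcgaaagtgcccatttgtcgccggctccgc
Ifnar1, chr16:91484965-91485214: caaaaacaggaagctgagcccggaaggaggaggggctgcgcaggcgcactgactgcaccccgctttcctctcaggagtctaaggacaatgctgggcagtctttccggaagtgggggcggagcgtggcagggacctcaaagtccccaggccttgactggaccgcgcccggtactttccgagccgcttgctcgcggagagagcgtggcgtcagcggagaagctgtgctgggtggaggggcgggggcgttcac
Ifngr2, chr16:91546809-91547058: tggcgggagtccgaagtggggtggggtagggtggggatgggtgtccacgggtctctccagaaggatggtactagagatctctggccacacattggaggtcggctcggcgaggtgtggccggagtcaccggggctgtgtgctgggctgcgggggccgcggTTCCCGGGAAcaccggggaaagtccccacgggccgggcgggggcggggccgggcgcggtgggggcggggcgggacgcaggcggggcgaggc
Ifngr1, chr10:19591699-19591948: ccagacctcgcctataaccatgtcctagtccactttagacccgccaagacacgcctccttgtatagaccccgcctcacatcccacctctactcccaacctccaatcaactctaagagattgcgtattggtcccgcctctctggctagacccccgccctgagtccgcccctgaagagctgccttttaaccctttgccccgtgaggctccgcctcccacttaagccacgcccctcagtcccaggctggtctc
The Ifnar2 window held TTCCTGGAA and the Ifngr2 window TTCCCGGGAA, while no match lay in the windows of Ifnar1 and Ifngr1. Of 32851 promoters of the same length, 7.02% held TTCNNNGAA and 5.85% TTCNNNNGAA. The Ifngr2 window was 74.0% GC with 4 copies of GGGCGG on either strand, Ifnar1 65.6% with 2, Ifngr1 59.2% with 2 and Ifnar2 54.0% with 0, against a median of 52.4% over all promoters and 32.7% of promoters with at least 1 copy. These matches are letters in a window and not measured binding.

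The receptor chains were distributed differently over the WT populations. Ifnar2, the chain that anchors type I interferon binding, was highest in CLPs and lowest in LT-HSCs. In CPM scaled by trimmed means, WT CLPs held 173 ± 58.4 (SD, n = 4), GMPs 89.0 ± 9.04, CMPs 76.1 ± 6.78, MEPs 38.6 ± 6.45, ST-HSCs 27.2 ± 7.58 (n = 3) and LT-HSCs 17.2 ± 9.57 (n = 3). The scaling factors were 0.516 to 0.713 in WT CLPs and 1.07 to 1.13 in WT GMPs. This scaling raises the WT CLP levels of every gene relative to the GMPs. CLPs exceeded LT-HSCs by 3.32 on the log2 scale (SE 0.37, adjusted p = 1.66e-06, edgeR quasi-likelihood test over all genes) and GMPs did so by 2.40 (adjusted p = 6.21e-05). Among neighbours in this order, the step from CMPs to MEPs was called (adjusted p = 0.0396, log2 difference -1.03). The step from CLPs to GMPs had an adjusted p of 0.0347 but was under 2-fold, and the other neighbours overlapped without a call. A call here needs an adjusted p of 0.05 or less and a difference of 2-fold or more. Ifnar2 was called in 11 of its 15 WT population pairs, where 14.4% of all gene and pair tests were called. In Tet2-/- mice, where 7 of its 15 pairs were called against 12.2% of all tests, the order was CLPs (103 CPM), GMPs (65.5), ST-HSCs (34.2), CMPs (25.9), MEPs (19.3) and LT-HSCs (18.8), so that CMPs stood below ST-HSCs with overlapping ranges.

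Ifngr2, the signalling chain of the interferon-gamma receptor, peaked in WT GMPs at 58.1 ± 6.85 CPM. It was 34.6 ± 25.8 CPM in CLPs, 23.8 ± 3.30 in CMPs, 17.5 ± 1.17 in MEPs, 7.83 ± 3.62 in ST-HSCs and 4.30 ± 3.27 in LT-HSCs. GMPs exceeded LT-HSCs by 3.79 (log2, SE 0.80, adjusted p = 0.00195) and CLPs did so by 3.0 (adjusted p = 0.00621), while no pair of neighbours was called. In Tet2-/- mice the means were 28.5 CPM in CLPs, 14.2 in GMPs, 6.69 in CMPs, 6.45 in MEPs, 5.4 in ST-HSCs and 4.05 in LT-HSCs, again with no called neighbours. Its partner Ifngr1, the ligand-binding chain, was at higher levels, from 253 ± 28.5 CPM in GMPs through 200 ± 6.34 in MEPs, 189 ± 24.6 in ST-HSCs, 158 ± 66.5 in CLPs and 120 ± 10.8 in LT-HSCs to 110 ± 15.8 in CMPs. Of its 15 WT pairs 2 were called, a share near the 14.4% over all genes: GMPs over CMPs (log2 1.23, SE 0.21, adjusted p = 0.0012) and over LT-HSCs (log2 1.12, adjusted p = 0.00127).

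Ifnar1, the other type I chain, was 52.5 ± 25.4 CPM in WT CLPs, 36.0 ± 10.1 in GMPs, 26.6 ± 6.56 in ST-HSCs, 23.9 ± 12.8 in CMPs, 16.2 ± 4.85 in LT-HSCs and 10.3 ± 1.67 in MEPs. No neighbours differed, but MEPs lay below GMPs (log2 -1.87, adjusted p = 0.00438) and CLPs above MEPs (log2 2.38, adjusted p = 0.000333). On a per-length scale, Ifngr1 was the most abundant chain in WT GMPs at 88.9 CPM per kb, followed by Ifnar2 at 26.7, Ifngr2 at 15.4 and Ifnar1 at 6.06. In WT LT-HSCs the same scale gave 42.0 for Ifngr1, 5.17 for Ifnar2, 2.73 for Ifnar1 and 1.14 for Ifngr2. In both populations the ligand-binding chain of the interferon-gamma receptor thus had several times the reads per length of its signalling partner.

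**Figure D1:**
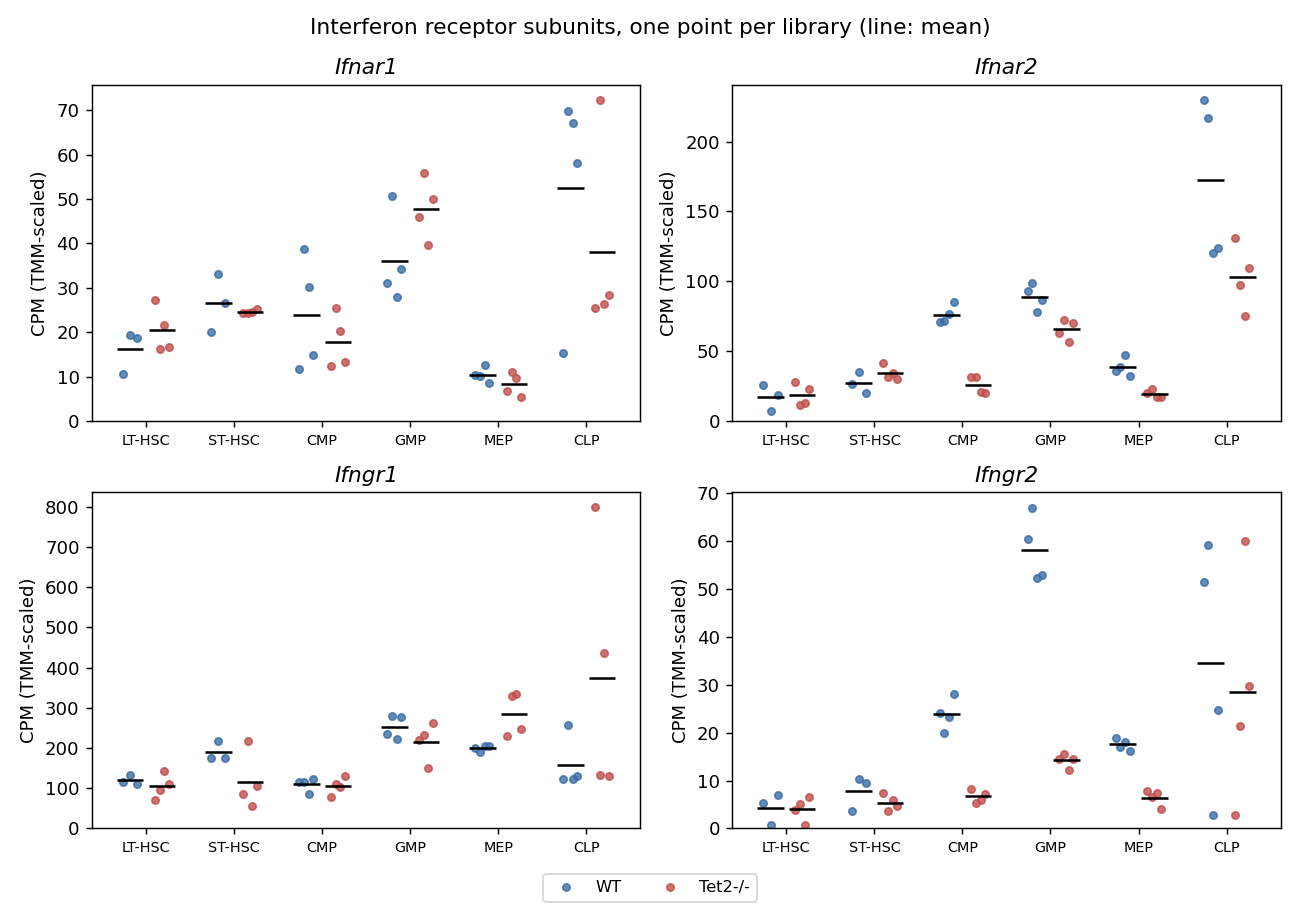
Trimmed-mean scaled CPM of the 4 receptor chains in each of the 46 libraries of the first table, by population on the horizontal axis, with WT in blue, Tet2-/- in red and the group mean as a line. Ifngr2 in Tet2-/- GMPs sits between 12.1 and 15.5 CPM, below all WT GMPs, and Ifnar2 in Tet2-/- CMPs between 19.6 and 31.7 CPM, below all WT CMPs.

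Loss of Tet2 was compared with WT within each population. Ifngr2 was lower in Tet2-/- CMPs, GMPs and MEPs, and Ifnar2 in Tet2-/- CMPs and MEPs. No member was called higher in any of the 6 populations in these fits. With 200 cells pooled per library, fewer cells carrying a transcript and less transcript per cell cannot be told apart, and the study's figure legends describe the replicates as mice.

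In GMPs, the 4 Tet2-/- libraries had 14.6, 15.5, 12.1 and 14.5 CPM of Ifngr2 and the 4 WT libraries 60.4, 66.8, 52.3 and 53.0. Every Tet2-/- library lay far below every WT library, and both groups were tight. The WT mean was 4.10 times the Tet2-/- mean (58.1 ± 6.85 against 14.2 ± 1.45 CPM, log2 -2.07, SE 0.15, adjusted p = 7.79e-06). Ifngr2 was the 1 member of 8 called in GMPs, where 4.37% of all genes tested were called and 4.06% called lower.

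In CMPs, Ifngr2 was 8.26, 5.21, 5.99 and 7.28 CPM in Tet2-/- libraries against 24.0, 19.9, 23.3 and 28.0 CPM in WT. The groups did not overlap, and the WT mean was 3.56 times the Tet2-/- mean (log2 -1.84, SE 0.21, adjusted p = 0.000818). In MEPs it was 7.79, 6.51, 7.40 and 4.08 CPM against 18.9, 17.0, 18.0 and 16.2 CPM. Again all Tet2-/- libraries were below all WT libraries, with a ratio of 2.72 (log2 -1.45, SE 0.23, adjusted p = 0.00508). Groups that did not overlap in this direction made up 8.97% of all genes tested in CMPs, 7.44% in GMPs and 8.52% in MEPs. Each of these differences had an exact two-sided permutation p of 0.0286, the smallest that 4 against 4 libraries can give.

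Ifngr2 was not called in the other populations. LT-HSCs had 3.76, 5.16, 0.733 and 6.54 CPM in Tet2-/- against 5.32, 0.635 and 6.93 in WT (log2 -0.06), and ST-HSCs 7.40, 3.72, 5.84 and 4.64 against 3.66, 10.2 and 9.58 (log2 -0.50). CLP libraries scattered from 2.88 to 59.9 CPM in Tet2-/- and from 2.83 to 59.2 in WT (log2 -0.27, SE 1.01). The lowest Ifngr2 in each genotype came from the CLP library with the lowest sum of GMP markers, 2.84 CPM in Tet2-/- and 5.06 in WT; the part of such cells in the scatter was not tested.

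Ifnar2 in CMPs was 31.7, 31.3, 20.9 and 19.6 CPM in Tet2-/- libraries and 70.5, 71.6, 76.7 and 85.4 CPM in WT. The ranges were well apart, and the WT mean was 2.94 times the Tet2-/- mean (76.1 ± 6.78 against 25.9 ± 6.50 CPM, log2 -1.57, SE 0.19, adjusted p = 0.00111). With Ifngr2, 2 of 8 members were called in CMPs, both lower, against 4.57% of all genes called and 3.92% called lower. In MEPs, Ifnar2 was 20.3, 22.5, 17.0 and 17.4 CPM against 35.6, 38.9, 47.4 and 32.4 CPM. The groups did not overlap and the ratio was 2.00 (log2 -1.01, SE 0.17, adjusted p = 0.0066), so this call stood at the fold limit. It fell under 2-fold without Tet2-/- replicate 4 (log2 -0.96, adjusted p = 0.0244), without Tet2-/- replicate 5 (log2 -0.97, adjusted p = 0.0260) and without WT replicate 4 (log2 -0.90, adjusted p = 0.0236). In MEPs, 2 of 7 members tested were called, both lower, where 4.36% of all genes were called and 4.21% called lower.

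In GMPs, Ifnar2 was 62.9, 72.5, 56.3 and 70.4 CPM in Tet2-/- and 92.7, 99.0, 77.9 and 86.3 CPM in WT. All Tet2-/- values lay below all WT values, but the difference was under 2-fold (log2 -0.47, SE 0.12, adjusted p = 0.0418). In CLPs, 131, 97.0, 75.3 and 109 CPM stood against 229, 217, 121 and 124 CPM, with 1 Tet2-/- library above the 2 lower WT ones (log2 -0.74, adjusted p = 1). LT-HSCs had 27.8, 11.3, 13.1 and 22.8 against 25.9, 6.95 and 18.8 CPM (log2 0.15), and ST-HSCs 41.4, 31.4, 34.0 and 29.9 against 26.1, 35.2 and 20.2 (log2 0.36). Both stem cell groups overlapped.

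A fit of all populations together gave other calls. When all 46 libraries were filtered, scaled and fitted together, Ifnar2 in CMPs stayed called (log2 -1.55, adjusted p = 0.000945). In that fit Ifngr2 lost its call in CMPs (adjusted p = 0.270), GMPs (adjusted p = 0.214) and MEPs (adjusted p = 0.484) with nearly the same log2 differences of -1.83, -2.03 and -1.44, and so did Ifnar2 in MEPs (log2 -0.998, adjusted p = 0.0604). The SE of Ifngr2 was 0.647, 0.652 and 0.639 there, against 0.212, 0.146 and 0.229 in the fits of single populations. For Ifnar2 in MEPs it was 0.286 against 0.166. In CLPs the SE of Ifngr2 fell from 1.01 to 0.628. The calls were thus lost with larger SEs and not with smaller differences, and what raised the SEs was not tested.

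**Figure D2:**
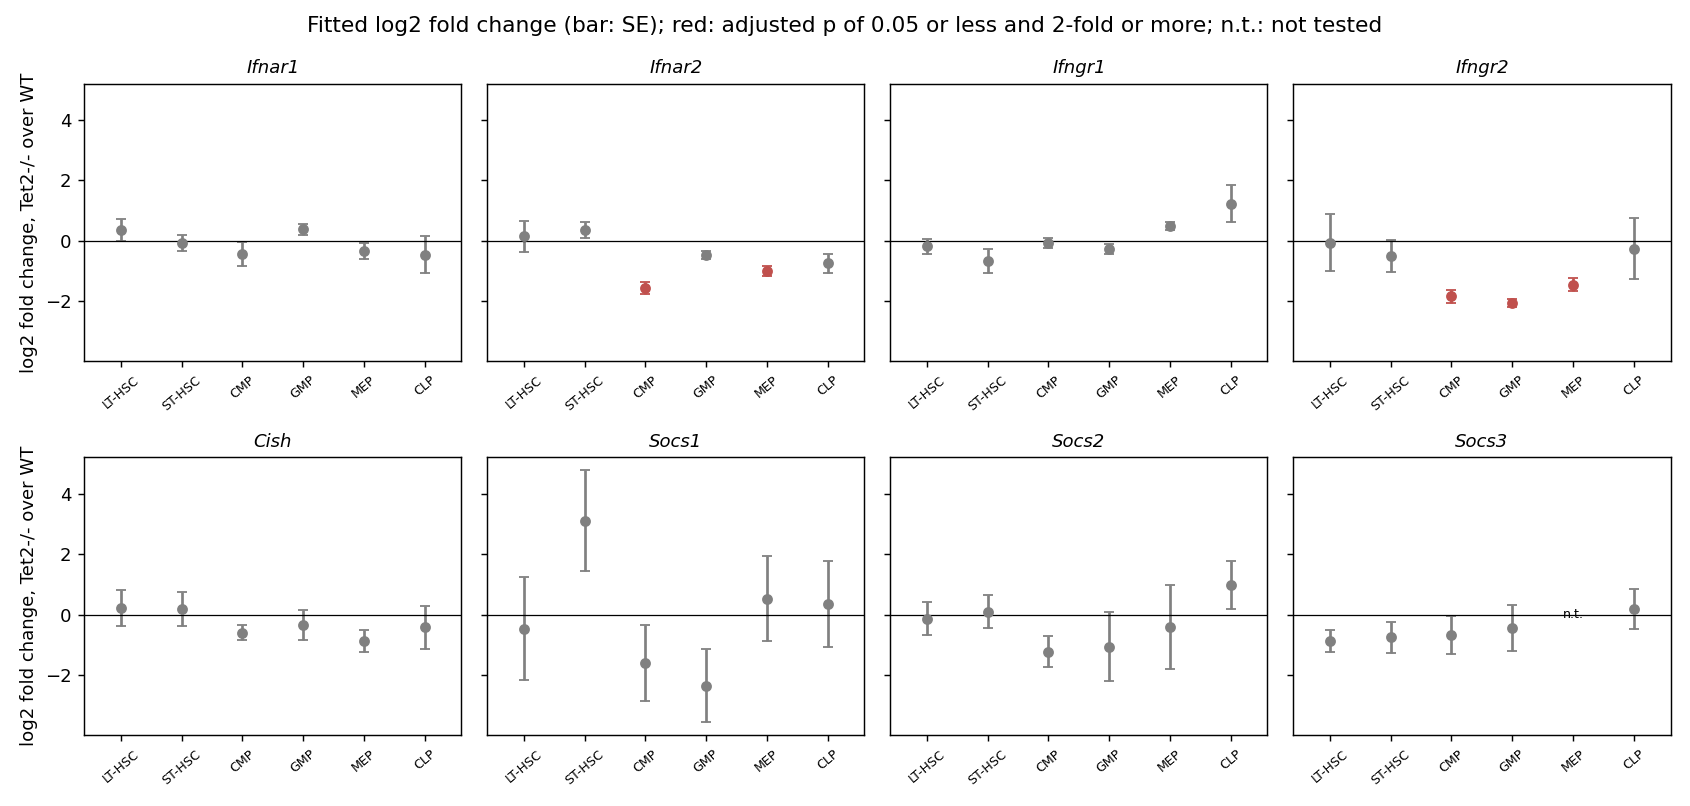
Fitted log2 difference of Tet2-/- over WT for each of the 8 genes in the 6 populations, with bars of 1 SE, 0 as a line, called values in red and untested ones marked n.t. The 5 called points are Ifngr2 in CMPs, GMPs and MEPs and Ifnar2 in CMPs and MEPs, from -1.01 to -2.07, and the SOCS panels hold none.

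Whether the Tet2-/- difference itself depended on the population was tested over all 46 libraries with 5 interaction terms. Ifnar2 was the 1 member past the threshold (F = 5.59, adjusted p = 0.0286, edgeR), where 2.65% of all genes passed. Its log2 differences ran from -1.57 in CMPs to 0.36 in ST-HSCs. The call was lost on leaving out replicate 4 or 5 of WT, or replicate 2, 4 or 5 of Tet2-/-, with adjusted p-values of 0.0858, 0.190, 0.0940, 0.116 and 0.208 in that order. Ifngr1 had an adjusted p of 0.195 and Ifngr2 of 0.597, so a population dependence of the Ifngr2 difference was not shown.

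Ifngr1 was not called in any population, and its largest fitted differences lay in CLPs and ST-HSCs. In MEPs, Tet2-/- libraries had 230, 328, 335 and 248 CPM and WT libraries 200, 191, 204 and 204 CPM. All Tet2-/- values were above all WT values, by less than 2-fold (log2 0.50, SE 0.13, adjusted p = 0.0576); groups that did not overlap in this direction made up 4.52% of all genes. CLPs had 798, 134, 435 and 131 CPM against 122, 258, 123 and 130 CPM, where 2 Tet2-/- libraries were high and 2 were like WT (log2 1.23, SE 0.62, adjusted p = 1). With all 46 libraries in 1 fit, this CLP difference was called (log2 1.24, adjusted p = 0.0318), as were 1477 of 22360 genes in CLPs there, against 1 of 13060 in the fit of the CLP libraries. ST-HSCs had 86.7, 216, 56.9 and 106 CPM against 174, 218 and 175 CPM (log2 -0.67, adjusted p = 0.973). In GMPs, CMPs and LT-HSCs the genotypes overlapped.

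No difference of Ifnar1 was called in any population. Its groups overlapped everywhere, for example in GMPs, with 46, 55.8, 39.6 and 50.0 CPM in Tet2-/- and 31.2, 50.6, 28.0 and 34.2 CPM in WT (log2 0.38, adjusted p = 0.358). In CMPs, 12.3, 25.4, 20.3 and 13.2 CPM stood against 11.6, 38.8, 30.1 and 14.9 CPM. Ifnar1 thus lay between Ifnar2 and Ifngr2 on chromosome 16 without a called difference in CMPs, where Ifnar2 and Ifngr2 were called lower. Il10rb and Gm21970 lie between Ifnar2 and Ifnar1, and their own values are not given here. Of 3 listed chains of the interferon-lambda and IL-10 receptors, 2 were tested in CMPs. There edgeR called 0 of them and DESeq2 called 1 higher.

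Other measures moved with the lower Ifngr2 and Ifnar2. Summed CPM of 14 immediate early genes, such as Jun and Dusp1, was 684 to 1590 in Tet2-/- against 2694 to 4421 in WT CMPs, 858 to 1758 against 2683 to 3465 in GMPs, and 248 to 588 against 1070 to 1319 in MEPs. It was also lower in CLPs (4625 to 10930 against 18900 to 28870), while the ranges overlapped in LT-HSCs and ST-HSCs. Immediate early genes are switched on within minutes of a stimulus, and their part in the receptor differences was not tested. MEP markers, summed over 6 genes, were 2790 to 5633 CPM in Tet2-/- CMPs against 594 to 1605 in WT CMPs. Car1 alone made up most of this sum, with means of 3584 against 871 CPM (log2 2.03), while Klf1 moved the other way (log2 -1.51). In MEPs, Klf1, a red cell transcription factor, was lower (log2 -3.13, adjusted p = 0.000203), as were the globin genes Hba-a1 (log2 -1.38, adjusted p = 0.0398) and Hba-a2 (log2 -1.47, adjusted p = 0.0232). The sum of 7 erythroid markers was 213 to 264 CPM in Tet2-/- against 264 to 617 CPM in WT MEPs, while that of the 6 MEP markers was 14170 to 19150 against 13330 to 15040 CPM. The part of these markers in the CMP and MEP differences was not tested.

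GC content at the 5' end moved with the calls as well. The first 200 bases of the Ifngr2 and Ifnar2 transcripts are 74.0% and 72.0% GC, in the richest of 5 equal bins of genes, while their whole transcripts are near the middle at 49.81% and 50.41%. Of the genes in that bin, 9.77% were called lower in CMPs, 12% in GMPs and 11.1% in MEPs, against 1.69%, 1.8% and 1.78% in the poorest bin. After a correction for this GC content, Ifngr2 stayed called in CMPs (log2 -1.53, adjusted p = 0.00421), GMPs (log2 -1.77, adjusted p = 1.65e-05) and MEPs (log2 -1.17, adjusted p = 0.0177). Ifnar2 stayed called in CMPs (log2 -1.26, adjusted p = 0.00309), fell under 2-fold in MEPs (log2 -0.72, adjusted p = 0.0322) and lost its adjusted p in GMPs (log2 -0.28, adjusted p = 0.212). Under the same correction Ifngr1 in MEPs had an adjusted p of 0.0319, below 2-fold. Ifnar1 and Ifngr1, with 69.0% and 67.5% GC in their first 200 bases, belong to the next richest bin.

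Around the receptors, the rest of the pathway was described from lists of genes named by role. The 12 JAK kinases, STAT factors and Irf9 were all tested in each population and none was called. At an unadjusted p of 0.05 or less, edgeR gave 1 of them in CMPs, 6 in GMPs, 3 in MEPs, 2 in CLPs and 0 in both stem cell populations, and DESeq2 called 1 in each of CMPs (lower), MEPs (higher) and CLPs (lower) and 0 elsewhere. The genes with such an unadjusted p numbered 3068 of all 16047 for CMPs, 2868 of 16563 for GMPs, 2448 of 14934 for MEPs and 477 of 13060 for CLPs. The list's median log2 difference was 0.39 in GMPs (9 of 12 above 0), 0.35 in CLPs (11), 0.21 in LT-HSCs (9), 0.10 in CMPs (8), 0.08 in MEPs (8) and -0.07 in ST-HSCs (5), beside 0.03 to 0.07 over all genes. Of 12 genes listed as other inhibitors of this signalling, Ptpn11, a phosphatase of many receptors, was lower in CMPs (log2 -1.14, adjusted p = 0.0161), GMPs (log2 -1.23, adjusted p = 0.00985) and MEPs (log2 -1.24, adjusted p = 0.0202). Its protein is Shp2, and the study's introduction cites an overactive Shp2-Stat3 pathway in Tet2-deficient cells after LPS. The list name therefore does not give the role of Ptpn11 in these cells. Sh2b3, an adaptor that restrains cytokine signals, was lower in GMPs (log2 -1.22, adjusted p = 0.0449). The list's medians were -0.12, -0.10 and -0.18 in CMPs, GMPs and MEPs, where 3.92%, 4.06% and 4.21% of all genes were called lower, and DESeq2 called 2 of the list lower in each.

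Among 24 cytokine receptors that use JAKs, 18 were tested in CMPs and GMPs. Il6ra, the IL-6 receptor chain, was lower in both, by a log2 difference of -2.35 in CMPs (adjusted p = 0.0215) and -2.37 in GMPs (adjusted p = 0.000417). Csf2ra, a chain of the GM-CSF receptor, was lower in GMPs (log2 -1.51, adjusted p = 0.0023), and Epor, the erythropoietin receptor, was higher in CMPs (log2 1.03, adjusted p = 0.0222). Of 11 other STAT targets, Osm was lower in CMPs (log2 -1.57, adjusted p = 0.00448) and Pim1 in GMPs (log2 -2.90, adjusted p = 0.00265). In CMPs and GMPs the medians were -0.26 and 0.17 for the receptors and -0.47 and 0.13 for the STAT targets. DESeq2 called 3 receptors lower and 1 higher in CMPs and 2 lower in GMPs, and 2 STAT targets lower in CMPs and 1 in GMPs.

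Interferon-stimulated genes, the readout of the receptors, had positive median differences in all 6 populations. Of 32 listed genes, 30 were tested in CMPs and 1 was called, Ifi44 (log2 1.30, adjusted p = 0.0378). Ifi44 was also the 1 gene called of 30 in GMPs (log2 1.84, adjusted p = 0.033), and Igtp, an interferon-induced GTPase, the 1 of 29 in MEPs (log2 1.65, adjusted p = 0.0402). Over all genes tested, 0.654% were called higher in CMPs, 0.308% in GMPs and 0.147% in MEPs. In LT-HSCs, ST-HSCs and CLPs edgeR called 0 of the list, with 6, 4 and 2 genes at an unadjusted p of 0.05 or less. In CMPs, GMPs and MEPs 7, 7 and 8 genes had such a p. Over all genes these were 843 of 16351, 994 of 16212, 477 of 13060, 3068 of 16047, 2868 of 16563 and 2448 of 14934, in this order. DESeq2 called 2 higher in LT-HSCs, 3 in GMPs, 2 in MEPs and 0 in ST-HSCs, and 1 higher and 1 lower in both CMPs and CLPs. Of all genes it called higher 157 of 24618 in LT-HSCs, 179 of 27151 in GMPs, 117 of 26249 in MEPs and 199 of 24850 in ST-HSCs. In CMPs these were 320 of 25911 and in CLPs 291 of 22880. By median, the list's log2 difference in the stem cells was 0.64 (26 of 30 above 0, long-term) and 0.41 (22 of 32, short-term). Among progenitors it was 0.30 for CMPs (19 of 30), 0.66 for GMPs (28 of 30), 0.48 for MEPs (23 of 29) and 0.36 for CLPs (14 of 21). Over all genes tested the medians were 0.06, 0.04, 0.03, 0.03, 0.05 and 0.07 in the same order. Of 19 interferon genes, 1 passed the low-count filter in CLPs (log2 0.11) and 0 in the other populations.

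The inhibitors had a different layout. Cish, which competes with STAT5 at cytokine receptors, and Socs2, best known for limiting growth hormone signals, were high in stem cells and CLPs and low in GMPs. Cish in WT was 117 ± 44.9 CPM in CLPs, 91.0 ± 40.2 in LT-HSCs and 26.2 ± 0.545 in ST-HSCs, before 12.1 ± 2.27 in MEPs, 11.6 ± 1.73 in CMPs and 3.64 ± 2.36 in GMPs. GMPs lay below LT-HSCs (log2 -4.59, SE 0.48, adjusted p = 1.58e-06), and CMPs and GMPs were the neighbours that differed with a call (log2 -1.64 for GMPs, adjusted p = 0.0259). Cish was called in 10 of 15 WT pairs.

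Socs2 in WT was 32.2 ± 19.2 CPM in LT-HSCs, 17.8 ± 10.5 in CLPs, 8.77 ± 0.868 in ST-HSCs, 3.05 ± 0.715 in CMPs, 1.14 ± 0.902 in MEPs and 0.497 ± 0.505 in GMPs. GMPs lay below LT-HSCs (log2 -5.91, SE 1.08, adjusted p = 0.00054), and so did MEPs (log2 -4.81, adjusted p = 0.00315). No neighbours in the order were called, although ST-HSCs and CMPs did not overlap. In Tet2-/- mice the order was the same but for CLPs, which came first with 35.4 CPM before 29.0 in LT-HSCs, with overlapping ranges.

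Socs3, the inhibitor of gp130 and G-CSF receptor signals, was 61.5 ± 27.6 CPM in WT CLPs, 20.4 ± 3.87 in LT-HSCs, 13.4 ± 7.44 in ST-HSCs, 2.87 ± 1.41 in CMPs, 2.07 ± 1.28 in GMPs and 0.403 in MEPs. In MEPs 3 of 4 WT libraries were at 0 and the other was at 1.61 CPM. CLPs exceeded MEPs by 7.16 (log2, SE 1.46, adjusted p = 0.000742), and no WT neighbours were called. In Tet2-/- mice CLPs lay above LT-HSCs (69.7 against 11.0 CPM, adjusted p = 0.0441) and GMPs above MEPs (1.54 against 0.0480 CPM, adjusted p = 0.00229), in both cases with overlapping ranges.

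Socs1, the strongest inhibitor of interferon signalling in the family, was scarce. WT CLPs had 6.54 ± 6.68 CPM, and no other WT population had a mean above the 1.33 ± 0.464 CPM of GMPs. It was at 0 in 11 of 46 libraries, where the limit that 3 counts set was between 0.0294 and 0.0595 CPM. CLPs exceeded ST-HSCs (log2 6.94, adjusted p = 0.00625) and MEPs (log2 5.84, adjusted p = 0.00617), and no neighbours in the order were called. Over all 8 members, 46 of 120 WT tests and 50 of 120 Tet2-/- tests of population pairs were called, beside the shares of 14.4% and 12.2% over all genes. The WT count was 30 without replicate 5 (9.3% over all genes), and the Tet2-/- count 26 without replicate 4 (6.82%) and 33 without replicate 5 (7.74%).

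The inhibitors lie apart in the genome, with Socs1 at chr16:10782240-10785536, Socs2 at chr10:95385362-95417180 and Socs3 at chr11:117966079-117970047 on the minus strand and Cish at chr9:107296026-107302784 on the plus strand. Cish overlaps 2 annotated genes on the opposite strand, Gm17040 and Gm17041, whose reads cannot be told apart if the counting ignored strand. Stretches from the RefSeq promoter windows of Socs1 and Socs3 are shown (minus strand), with an interferon-type motif, GAAANNGAAA, and a STAT-type motif, TTCNNNGAA, in capitals. RefSeq places the starts of Socs3 and Cish further into the gene than GENCODE, so these 2 windows lie inside the GENCODE gene bounds given here.
Socs1, chr16:10785597-10785626: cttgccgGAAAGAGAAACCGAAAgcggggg
Socs3, chr11:117969502-117969531: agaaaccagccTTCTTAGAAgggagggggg
In Socs1, 2 matches to GAAANNGAAA overlap, and 2.98% of 32851 promoters held at least 1 on either strand. Neither TTC motif was found in the 250 bases before the RefSeq start of Cish. Socs2 had no promoter entry.

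**Figure D3:**
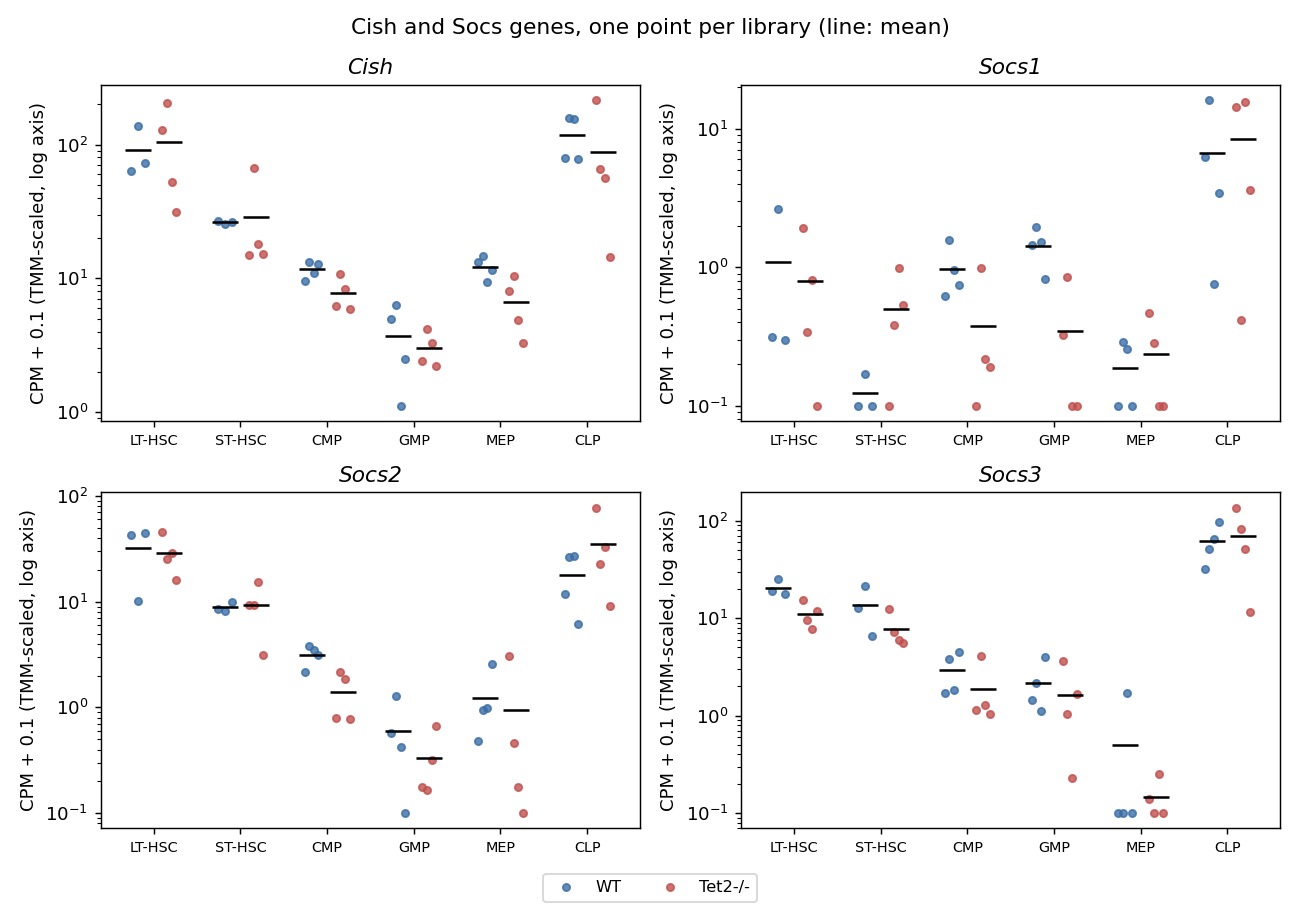
Trimmed-mean scaled CPM plus 0.1 of Cish, Socs1, Socs2 and Socs3 on log axes in each of the 46 libraries, by population, with WT in blue, Tet2-/- in red and group means as lines; libraries with no count sit at 0.1. Cish and Socs2 fall from LT-HSCs to GMPs in both genotypes, and Socs1 reaches 10 CPM only in CLP libraries.

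No inhibitor was called between Tet2-/- and WT in any population. Socs3 in LT-HSCs came nearest to a stem cell difference, with 15.2, 9.42, 7.55 and 11.6 CPM in Tet2-/- libraries and 18.9, 24.8 and 17.5 CPM in WT. All Tet2-/- values were below all WT values, as for 3.96% of all genes, but the adjusted p was 0.910 (log2 -0.87, SE 0.36, unadjusted p = 0.0412; exact two-sided permutation p = 0.0571). Of the 8 members, edgeR called 0 in LT-HSCs, ST-HSCs and CLPs, where 0.0245%, 0.0185% and 0.00766% of all genes were called. At an unadjusted p of 0.05 the counts were 1 (Socs3), 0 and 1 (Ifnar2), beside 843 of 16351, 994 of 16212 and 477 of 13060 genes, and DESeq2 called 0 members in each.

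In CMPs the fitted log2 differences of the 4 inhibitors ran from -1.60 to -0.60. In MEPs that of Socs1 was 0.52, that of Socs2 was -0.41, and Socs3 did not pass the low-count filter. Cish in MEPs was 7.98, 10.4, 4.79 and 3.17 CPM in Tet2-/- against 13.1, 14.5, 9.25 and 11.4 CPM in WT (log2 -0.89, SE 0.36, adjusted p = 0.254). In CMPs it was 6.12, 10.6, 8.26 and 5.85 CPM against 9.47, 13.2, 10.9 and 12.8 CPM (log2 -0.60, SE 0.26, adjusted p = 0.251). Both pairs of groups overlapped through the upper Tet2-/- libraries. Socs2 in CMPs was 0.689, 2.08, 1.76 and 0.679 CPM against 2.05, 3.72, 3.36 and 3.06 CPM, overlapping by 1 library (log2 -1.23, SE 0.52, adjusted p = 0.235). Socs1 in GMPs was 0.226, 0.752, 0 and 0 CPM against 1.34, 1.85, 1.41 and 0.721 CPM (log2 -2.35, SE 1.21, adjusted p = 0.369). The median log2 difference of all members tested, receptor chains included, was -0.95 in CMPs, -0.46 in GMPs and -0.41 in MEPs, beside 0.03, 0.03 and 0.05 over all genes, and -0.10, 0.01 and -0.04 in LT-HSCs, ST-HSCs and CLPs.

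Elsewhere the named inhibitors overlapped between Tet2-/- and WT, Socs3 in LT-HSCs aside. Socs1 in ST-HSCs had the largest fitted difference of any member between these genotypes (log2 3.11, SE 1.68, adjusted p = 0.934). Its means there were near the limit of detection, at 0.401 CPM in Tet2-/- and 0.0232 CPM in WT. Cish in LT-HSCs was 129, 202, 52.0 and 31.5 CPM in Tet2-/- against 63.0, 137 and 72.9 CPM in WT, and Socs2 45.8, 25.5, 28.7 and 15.8 against 42.2, 10.0 and 44.4 CPM. In CLPs the spread was wide in both genotypes, with Cish at 214, 65.6, 56.2 and 14.2 against 79.3, 157, 155 and 77.6 CPM and Socs3 at 135, 81.6, 50.8 and 11.4 against 32.0, 51.1, 65.1 and 97.6 CPM. The other family genes, Socs4 to Socs7, were all tested in the 6 populations and none was called by edgeR; 1 of 4 had an unadjusted p of 0.05 or less in GMPs and 1 in CLPs, and DESeq2 called 0.

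Over the 46 libraries, log2 CPM of Socs2 and Cish followed each other with r = 0.869 (Spearman rho = 0.910). Socs2 and Socs3 had r = 0.708 (rho = 0.828) and Socs3 and Cish r = 0.660 (rho = 0.808). Among receptors the closest pair was Ifnar2 and Ifngr2 (r = 0.723, rho = 0.675), while Ifngr1 and Ifngr2, the chains of 1 receptor, had r = 0.225 (rho = 0.289). The libraries share populations, so these values describe the layout over cell types and carry no p. Among 8870 genes with a mean of at least 10 CPM, those most like Socs2 were S100a6 (r = 0.892), Gimap5 (r = 0.887) and Sla2 (r = 0.873). Those most like Cish were Gbp8 (r = 0.879), Gimap5 (r = 0.870) and Socs2. Socs3 was most like Tmem176a (r = 0.909), Lsp1 (r = 0.907) and Lcp2 (r = 0.906).

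**Figure D4:**
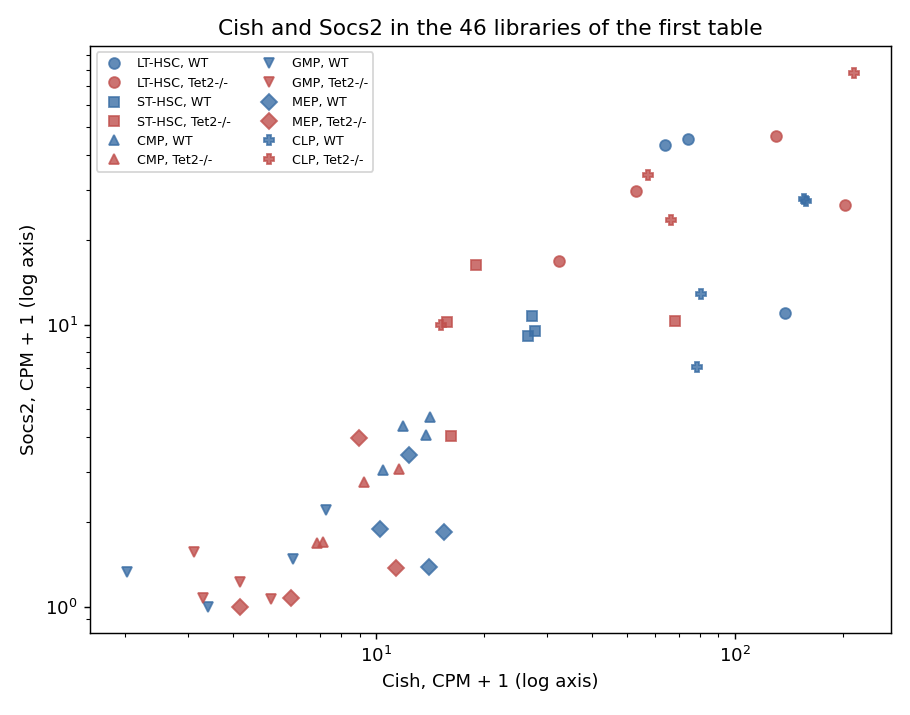
Socs2 against Cish in the 46 libraries of the first table, each as trimmed-mean scaled CPM plus 1 on log axes, with a marker shape per population, blue for WT and red for Tet2-/-. GMP libraries lie at the lower left, LT-HSC and CLP libraries at the upper right, and both genotypes lie along 1 band (r = 0.869).

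For the receptors, the genes of the most similar pattern were Yipf3 (r = 0.881), Serp1 (r = 0.879) and Gorasp2 (r = 0.876) for Ifnar2, and Hes6 (r = 0.838), Fbxl6 (r = 0.824) and Zbed3 (r = 0.809) for Ifngr2. Ifnar1 was most like Laptm5 (r = 0.858), Unc93b1 (r = 0.838) and Vav1 (r = 0.834). Ifngr1 had no close match, with Dync1li1 (r = 0.612), Polg (r = 0.591) and Nptn (r = 0.590), nor had Socs1, with Dnajc3 (r = 0.698), Grina (r = 0.665) and Ckb (r = 0.643).

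The second table asked how LT-HSCs of Sting-/- and DKO mice compare with WT, and 3 libraries a group limit it: an exact permutation test of 3 against 3 cannot go below 0.1. Socs2 was lowest in the DKO libraries. It was 91.8, 109 and 50.4 CPM in WT, 101, 169 and 72.4 CPM in the libraries labelled Sting-/-, whose Tmem173 counts did not follow the label, and 2.98, 17.8 and 13.6 CPM in DKO libraries. All DKO values were below all values of the other groups. The fitted difference of DKO from WT was -2.94 on the log2 scale (SE 1.04, unadjusted p = 0.0223, adjusted p = 0.253, edgeR), and from Sting-/- -3.33 (SE 0.97, unadjusted p = 0.00932, adjusted p = 0.362). DESeq2 called both, with adjusted p-values of 0.0081 and 0.00974. Socs2 was not alone in this. Of Socs4 to Socs7, DESeq2 called 2 lower in DKO than in WT, 1 in DKO than in Sting-/- and 1 in Sting-/- than in WT, and edgeR 0. The 3 of them tested in DKO against WT lay below every WT library (median log2 -8.42). DESeq2 also called 4 of 24 cytokine receptors and 3 of 11 STAT targets lower in DKO than in WT, beside 1056 of 14627 genes. The immediate early genes Junb (log2 -6.40, adjusted p = 0.00854) and Ier2 (log2 -4.91, adjusted p = 0.00341) were also lower in DKO than in WT libraries. Junb was lower in DKO than in Sting-/- libraries too (log2 -4.71, adjusted p = 0.0475). The summed CPM of all 14 immediate early genes overlapped, at 4238 to 11180 in DKO, 8199 to 18810 in WT and 8791 to 10640 in Sting-/-. The part of these genes in the Socs2 difference was not tested. Sex cannot be told apart from genotype in the difference from WT, while the Sting-/- and DKO libraries both carried Y-linked transcripts.

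By edgeR, 0 of 8 members were called in Sting-/- against WT, 0 of 8 in DKO against WT and 0 of 6 in DKO against Sting-/-, where 0%, 0.657% and 0.159% of all genes were. At an unadjusted p of 0.05 the counts were 0, 1 and 1, and by DESeq2 0, 1 and 1, Socs2 each time. Over all genes, 470 of 9969, 1289 of 9745 and 783 of 9437 had such an unadjusted p, and DESeq2 called 414 of 14808, 1351 of 14627 and 794 of 14480. DKO values below all WT values were seen in 13.8% of all genes, and below all Sting-/- values in 10.7%. Between Tet2-/- and WT in the first table, Socs2 in LT-HSCs did not differ beyond its spread (log2 -0.13, adjusted p = 0.998), and no test joined the tables.

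Ifnar2 in the second table was 99.3, 64.8 and 22.6 CPM in WT, 2.1, 10.8 and 16.6 CPM in Sting-/- and 21.9, 0.841 and 0.832 CPM in DKO. Both mutant groups lay below all WT libraries, but the highest mutant and lowest WT values nearly met. The fitted differences were -2.63 (SE 1.27, adjusted p = 0.9999) and -3.04 (SE 1.66, adjusted p = 0.548), and WT exceeded every Sting-/- library in 7.54% of all genes. Ifngr1 was the member with the most CPM in every group, at 686, 726 and 604 CPM in WT, 1328, 814 and 721 in Sting-/- and 978, 910 and 544 in DKO. Cish was 123, 104 and 104 CPM in WT, 135, 146 and 98.3 in Sting-/- and 137, 93.6 and 422 in DKO, where 1 DKO library was high. The 32 interferon-stimulated genes summed to 1610 to 2458 CPM in DKO, 912 to 1301 in WT and 1091 to 1195 in Sting-/-. Their median log2 difference was 0.59 in DKO against WT (15 of 23 above 0) and 0.53 against Sting-/- (16 of 22). There edgeR called 0, while DESeq2 called 2 higher against WT, and 1 higher and 1 lower against Sting-/-.

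The low members were erratic in this table. Ifnar1 was 41.9, 0 and 0.140 CPM in WT, 1.62, 12.3 and 2.31 in Sting-/- and 0.508, 0.827 and 28.6 in DKO. Ifngr2 was 15.9, 5.48 and 0 CPM in WT, 0.191, 7.97 and 0 in Sting-/- and 0, 6.91 and 0.0462 in DKO. In every group 1 library carried most of the reads of Ifnar1, and 3 of 9 libraries had no count of Ifngr2, where 3 counts set a limit of 0.0381 to 0.112 CPM. Socs1 was 1.32, 0.948 and 0.628 CPM in WT, 0.115, 0.459 and 0 in Sting-/- and 6.29, 0 and 0 in DKO. Socs3 was 100, 18.7 and 21.2 CPM in WT, 22.9, 14.8 and 10.4 in Sting-/- and 30.5, 1.29 and 22.6 in DKO. Intervals and limits of this kind cover counting error only.

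**Figure D5:**
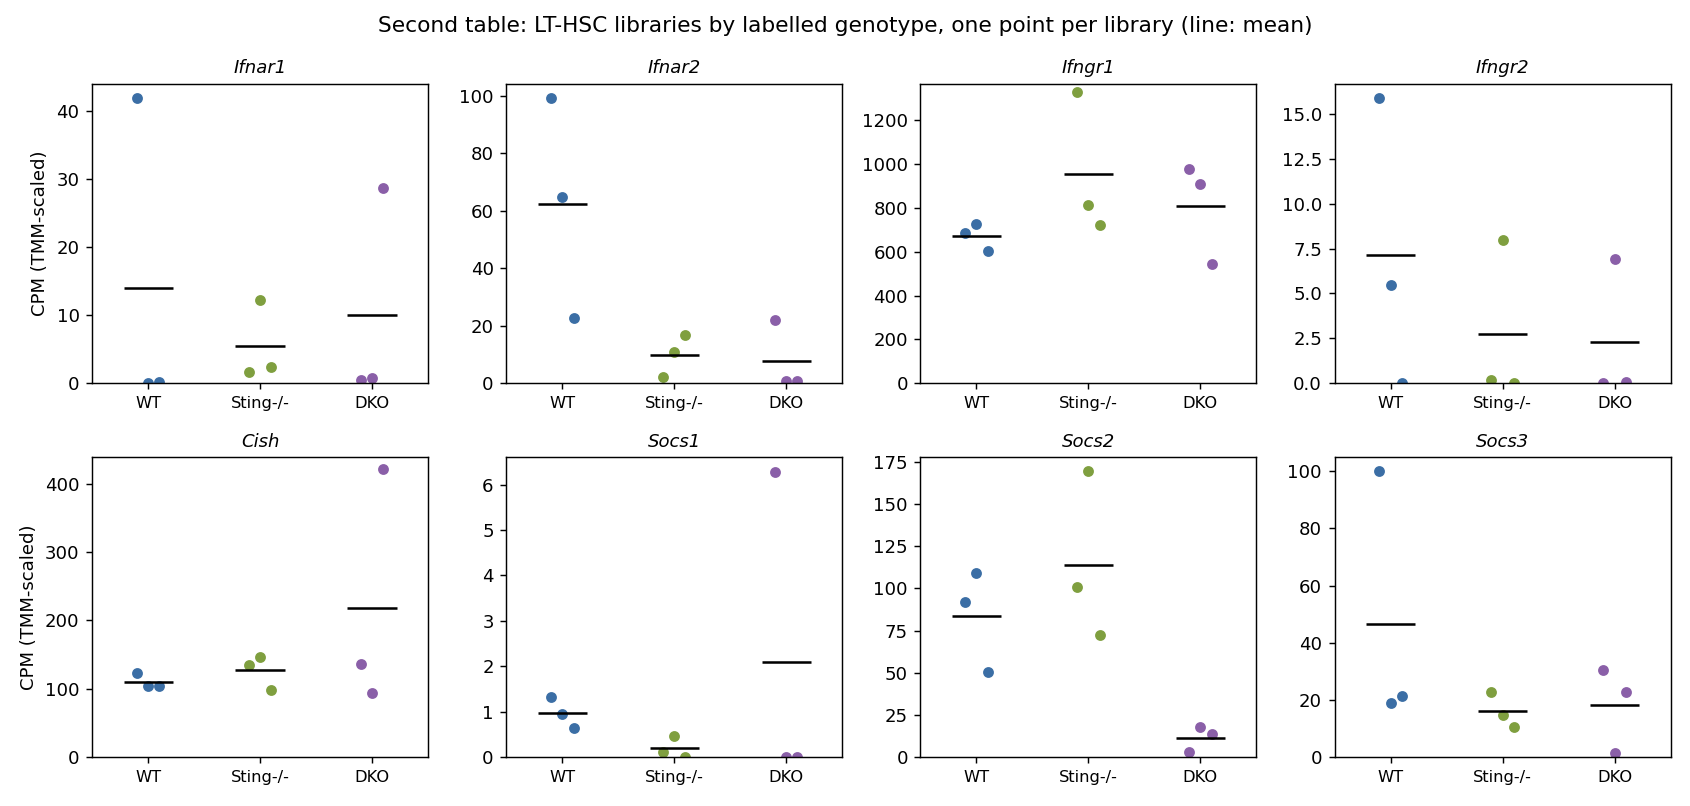
Trimmed-mean scaled CPM of the 8 genes in the 9 LT-HSC libraries of the second table, by labelled genotype, with the group mean as a line. The DKO libraries have 2.98 to 17.8 CPM of Socs2, below all WT and Sting-/- libraries, and Ifnar1 and Ifngr2 include libraries with no count.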

How the data were processed

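The deposited values are raw counts of reads per gene, which the authors made by trimming (Trim Galore), mapping to mm10 (Hisat2) and counting; they tested with DESeq2. The submitters' processing notes name Trim Galore 0.6.7 and HISAT2 7.5.0, and the study's methods name other versions of both. The counting program, its annotation and its strand setting are not given in the sources used here. All columns were matched to samples by name, 2 broken lines of the second table were not used, and no 2 libraries were identical.

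The test was edgeR's quasi-likelihood F-test (version 4.0.16, R 4.3.3, with filterByExpr and TMM scaling; Benjamini-Hochberg over all genes tested) on the 2 groups compared, or on 1 genotype for population pairs; a call needed an adjusted p of 0.05 or less and at least 2-fold. Fitted log2 values used a prior count of 2. CPM were TMM-scaled, and CPM per kb used GENCODE vM21 exon lengths. Single members had two-sided exact permutation tests. Depth, between 26776517 and 102148079 counts per library, put 3 counts at 0.0294 to 0.112 CPM. Replicate numbers were not taken as pairs, since the sources used here do not say whether same-numbered libraries came from 1 mouse. The procedure was tested on simulated data. Alternatives were DESeq2 1.42.0, RLE scaling, no low-count filter, 1 fit of all libraries, other thresholds and prior count, a replicate block and leaving out libraries; corrections for GC content (99.8% or more of genes tested had a value) were added after the data were seen.

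The 8 genes, the gene lists and the alternatives were chosen with earlier results of these data known. All 8 were named in every comparison, pathway genes where called (at most 5 a comparison, smallest adjusted p first; Sh2b3, Jun, Junb, Ier2, Dusp1, Car1, Klf1, Hba-a1 and Hba-a2 were named after their values were seen), and for similarity the 3 highest correlations. Promoters of 7 of the 8 genes came from RefSeq (GRCm38.p6), gene positions from GENCODE vM21, and Python 3.11.15 with pandas 2.3.3 and matplotlib 3.10.9 drew the plots. Read alignments and exon usage were not analysed here.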

Additional observations from a re-analysis of the deposited data

Results flagged for a closer look

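Within groups of 4 libraries, 80 groups of a member's values were screened for 1 library standing apart from the other 3 (Dixon's criterion), and 7 had one, where chance gives about 1 in 20 groups, or 4.0 of 80. All 7 were high values. In CLPs, Ifnar1 was 72.39 CPM in Tet2-/- replicate 3 (the others 25.44 to 28.34), and Ifngr1 257.8 CPM in WT replicate 3 (the others 122.2 to 129.7). Tet2-/- CMP replicate 3 stood apart for both Socs1, at 0.8878 CPM (the others at most 0.1167), and Socs3, at 4.001 CPM (0.9505 to 1.18). Socs2 was 2.969 CPM in Tet2-/- MEP replicate 2 (at most 0.3651 in the others) and Socs3 1.611 CPM in WT MEP replicate 4, where the others were at 0. Cish was 67.24 CPM in Tet2-/- ST-HSC replicate 3 (14.79 to 18.02 in the others).

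The Tet2-/- difference of Ifnar2 varied between populations in the interaction test (adjusted p = 0.02859, edgeR over 46 libraries), with log2 differences of -1.57 in CMPs, -1.01 in MEPs, -0.74 in CLPs, -0.47 in GMPs, 0.15 in LT-HSCs and 0.36 in ST-HSCs. Leaving out a replicate number of 1 genotype gave adjusted p-values of 0.0378 to 0.2081, above 0.05 in 5 of 8 cases.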

How the results depend on the processing

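No fitted difference of a member that was called reversed its sign, and the replicate block changed no genotype or interaction call of a member. For population pairs the block gave 45 calls in WT (42 shared with the 46) and 45 in Tet2-/- (44 shared with the 50). With all libraries in 1 fit, CMPs and CLPs had 1 member called each, and GMPs and MEPs 0, in place of 2, 0, 1 and 2. Without a fold threshold GMPs had 2. Correction for GC content of the first 200 bases left 1 in MEPs. On leaving out 1 library at a time the count was 2 to 2 in CMPs, 1 to 1 in GMPs and 1 to 2 in MEPs. On leaving out a replicate number of 1 genotype in all populations it was 0 to 2 for the interaction, 2 without Tet2-/- replicate 3. DESeq2, and likewise an unadjusted p of 0.05 with 2-fold, gave 1 member in DKO against WT and 1 in DKO against Sting-/-, in place of 0. The unadjusted p with 2-fold also gave 3 in CMPs, Socs2 being added. Called population pairs ran from 30 to 48 in WT and from 26 to 38 in Tet2-/- on leaving out a replicate number, against 46 and 50. Where a value changed, the cause was not tested. Leaving out 1 library gave log2 differences of -1.95 to -1.75 for Ifngr2 in CMPs, -2.15 to -2.0 in GMPs and -1.58 to -1.29 in MEPs, and of -1.68 to -1.46 for Ifnar2 in CMPs.

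Over all genes, edgeR called 4 genes in LT-HSCs (DESeq2 237) and 3 in ST-HSCs (DESeq2 331). With 1 fit, calls in CMPs fell from 734 to 285 and in GMPs from 723 to 219, and those in CLPs rose from 1 to 1477. Same-numbered WT and Tet2-/- libraries correlated at -0.0564 to 0.1207 in their deviations, so the numbers were not taken as pairs. Across populations of 1 genotype, same-numbered libraries correlated above 0.1 in 10 of 51 cases in WT and 17 of 60 in Tet2-/-, against 2 of 150 and 4 of 180 for different numbers. Same-numbered libraries of 1 genotype were thus more alike. The tests of population pairs and of the interaction, the replicate block aside, treated them as independent. Low members such as Socs1, at 0 in 11 of 46 libraries, limit what small differences could be seen.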
